A study of Homo sapiens with 3 samples.

Results

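The cytosolic ribosomal protein genes encode the protein parts of the ribosome that translates nuclear messages. They were taken as every protein-coding symbol of the RefSeq GRCh38.p14 table that reads RPL or RPS and a number, with the A, L, X and Y forms, RPLP0 to RPLP2 and RPSA. This gave 87 of the 20037 coding genes on assembled chromosomes, 53 of the large and 34 of the small subunit. The kinase genes of the RPS6K family, fused readthrough genes and RPSA2 fell outside the rule. The genes were set against SOX4 chromatin immunoprecipitation sequencing (ChIP-seq) of 3 libraries, replicates 1, 2 and 3. All 3 came from BT549 (an established cell line of a human triple-negative breast cancer), were labelled UT and were precipitated with 1 SOX4 antibody from Abcam. No other condition, input or IgG library was analysed here, and nothing in the labels ties the libraries to separate cultures.

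Each library had a list of 1-bp summits and a score the authors gave it, on the −log10 scale of p or q. Read depth is unknown. Replicate 1 had 1368 summits, replicate 2 had 1713, and replicate 3 had 4430. The list of replicate 3 was the longest, and 27 of the 31 members with a summit in any library had one in it. A summit counted for a gene when it lay within 1 kb of either end of it. A percentile is the share of a library's summits that scored the same or lower.

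A ribosome needs about equal amounts of all its proteins. Their genes share short, highly active promoters, in mammals often with a run of pyrimidines (C and T) at the start, which becomes the terminal oligopyrimidine (TOP) signal of the message and ties its translation to mTOR. Many of them also carry small nucleolar RNA genes in introns. SOX4 is a high-mobility-group transcription factor of development and of invasive tumours, and SOX factors bind short AT-rich sites.

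The 7 start regions below are those of members with a summit in the stretch from 150 bases before the start to its first 30 bases, where the start table held the gene. They show the letters under those summits; most replicate 3 summits lay further downstream and are not in them. The sequences are RefSeq's for GRCh38.p14, 180 bases each, 5′ to 3′ on the strand of the gene, with the start at base 151. Capitals mark the pyrimidine run of at least 5 letters that holds the start, and every match, on either strand, to CTCGCGA, to the ETS motif CCGGAAG and to the SP1 motif GGGCGG. The first of these overlaps its own reverse complement, TCGCGAG, where both occur. The SOX motifs AACAAAG and AACAAT, the YY1 motif AAGATGG and the TATA box TATAAA were searched too and had no match in these stretches.
RPS19: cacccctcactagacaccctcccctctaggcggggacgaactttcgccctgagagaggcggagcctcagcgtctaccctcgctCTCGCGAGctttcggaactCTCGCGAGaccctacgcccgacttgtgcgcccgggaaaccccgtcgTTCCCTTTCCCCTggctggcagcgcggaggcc
RPS6: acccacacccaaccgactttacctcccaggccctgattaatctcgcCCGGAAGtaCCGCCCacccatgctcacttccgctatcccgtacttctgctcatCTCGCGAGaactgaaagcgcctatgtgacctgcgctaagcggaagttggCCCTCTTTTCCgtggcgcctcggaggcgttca
RPL26: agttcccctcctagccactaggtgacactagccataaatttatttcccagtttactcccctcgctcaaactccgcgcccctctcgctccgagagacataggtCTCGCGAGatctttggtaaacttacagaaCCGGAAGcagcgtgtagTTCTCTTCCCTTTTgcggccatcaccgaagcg
RPL27A: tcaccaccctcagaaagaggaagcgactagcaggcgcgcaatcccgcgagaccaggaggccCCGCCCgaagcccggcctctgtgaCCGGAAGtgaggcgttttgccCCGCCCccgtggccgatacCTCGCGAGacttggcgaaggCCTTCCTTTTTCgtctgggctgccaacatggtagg
RPL17: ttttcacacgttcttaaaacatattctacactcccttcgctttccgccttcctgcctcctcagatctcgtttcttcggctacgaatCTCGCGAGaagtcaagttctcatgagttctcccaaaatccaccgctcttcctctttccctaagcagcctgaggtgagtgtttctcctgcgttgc
RPS14: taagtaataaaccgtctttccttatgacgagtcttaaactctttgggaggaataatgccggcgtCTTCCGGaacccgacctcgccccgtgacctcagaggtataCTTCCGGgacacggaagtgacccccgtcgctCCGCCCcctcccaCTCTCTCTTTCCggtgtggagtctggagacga
RPL13: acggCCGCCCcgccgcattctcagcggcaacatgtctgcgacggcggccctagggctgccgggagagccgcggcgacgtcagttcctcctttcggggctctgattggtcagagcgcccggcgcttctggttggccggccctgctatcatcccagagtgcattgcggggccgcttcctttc

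RPS19 was read at chr19:41860105-41860284 on the plus strand. Its summits lay at base 91 in replicate 1 and at base 76 in replicate 2, and the CTCGCGA matches covered bases 84 to 91 and 103 to 110. RPS6, at chr9:19380207-19380386 on the minus strand, had its replicate 1 summit at base 155, inside the pyrimidine run of bases 149 to 159, and CTCGCGA matches from base 100 to base 107. RPL26, at chr17:8383164-8383343 on the minus strand, had its replicate 1 summit at base 21 and matches from base 103 to base 110. RPL27A, at chr11:8682642-8682821 on the plus strand, had its replicate 1 summit at base 160 and matches from base 126 to base 133. RPL17, at chr18:49492436-49492615 on the minus strand, had its replicate 2 summit at base 147 and matches from base 87 to base 94. All 5 of these carried CTCGCGA, but the motif was picked after these stretches were read, so the count is no support for it. The summits inside these 5 stretches came from replicate 1 or 2. RPS19, RPS6 and RPL26 also had replicate 3 summits, which lay outside the stretches. RPS14, at chr5:150449710-150449889 on the minus strand, and RPL13, at chr16:89560507-89560686 on the plus strand, had replicate 3 summits at bases 140 and 97. Neither held CTCGCGA.

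Of the 87 genes, 31 had a SOX4 summit within 1 kb of an end in any library (35.6%, exact 95% binomial interval 25.6 to 46.6%), against 15.1% of all coding genes. At least 2 libraries placed one at 7 genes (8.05%, interval 3.30 to 15.9%), against 3.2% of all coding genes. All 3 libraries did so at RPS19 alone, 1 of 87 genes, against 0.838% of all. These intervals cover counting error only. Replicate 1 gave 8 of the 87 genes (9.20%), against 3.07% of all coding genes. Replicate 2 gave 4 (4.60%), against 2.76%. Replicate 3 gave 27 (31.0%), against 13.3%. The share of ribosomal protein genes was thus above that of all coding genes in 3 of 3 libraries, by a mean of 8.56 percentage points ± 8.22 (SD, n = 3). The exact sign-flip permutation test over libraries gave a two-sided p = 0.25, the smallest that 3 libraries allow. Without replicate 3, 11 of the 87 genes had a summit in either other library, against 4.77% of all coding genes, and 1 of the 87, RPS19, had one in both (1.15%), against 1.06%. Without replicate 1, 3 of the 87 had one in both other libraries, against 1.86%, and without replicate 2 there were 5, against 1.96%. Counted by the annotated start alone, 2 of 70 members had summits of at least 2 libraries, RPS19 and RPS6, against 2.99% of coding genes with a listed start, so the share was then not above that of all.

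Summits of at least 2 libraries were at 4 of the 34 small-subunit genes (11.8%) and 3 of the 53 large-subunit genes (5.66%), with overlapping intervals. Among the small-subunit genes, RPS19 encodes a protein needed to mature the small subunit and is the gene most often mutated in Diamond-Blackfan anaemia, an inherited failure of red cell production. Its summits lay 60 bp before the start in replicate 1 (score 22.4), 75 bp before it in replicate 2 (score 14.2) and 187 bp after it in replicate 3 (score 5.01). The first 2 were 15 bp apart and stood at the 93.7th and 90.5th percentile of their lists. The summit of replicate 3 was 247 bp from that of replicate 1 and stood at the 38.8th percentile, so replicates 1 and 2 were high at this gene and replicate 3 was not.

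RPS20, a protein of the head of the small subunit, had summits 6 bp from the higher coordinate of the gene in replicate 2 (score 5.59) and 49 bp from it in replicate 3 (score 16.8). They were 43 bp apart, and the replicate 3 summit stood at the 97.6th percentile, the highest of any member in that list. The nearest summit of replicate 1 was 1119 kb away. RPS15A, another small-subunit protein of the Diamond-Blackfan group, had summits at 28 bp in replicate 2 (score 3.14) and 181 bp in replicate 3 (score 7.57), 153 bp apart. RPS6, the small-subunit protein that S6 kinases phosphorylate, had summits 4 bp after its start in replicate 1 (score 6.54) and 179 bp after it in replicate 3 (score 4.26). At these 3 genes 1 library had no summit within 1 kb, and the 2 that did were under 200 bp apart.

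Of the 3 large-subunit genes with 2 libraries, RPL41 and RPL7 had both summits on the side of another gene. RPL26 had only its replicate 3 summit there. RPL41, which encodes the shortest ribosomal protein, had them 229 bp past its far end in replicate 1 (score 6.15) and 119 bp past it in replicate 3 (score 6.14). They lay 1563 and 1453 bp from the RPL41 start and 70 and 180 bp from an end of ZC3H10. RPL7 had summits outside the gene at 158 bp in replicate 1 (score 2.85) and 709 bp in replicate 3 (score 3.59), and these were 22 and 573 bp from an end of RDH10. RPL26 had 1 summit at each end, 6620 bp apart. The replicate 1 summit lay 130 bp before its start (score 4.68), and the replicate 3 summit (score 15.8) lay 813 bp past its far end and 1 bp from an end of KRABD2. Which gene such a summit belongs to cannot be told apart by distance.

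Among the 24 genes with a single library, 20 had it in replicate 3, 3 in replicate 1 and 1 in replicate 2. The highest percentiles were those of RPS14, a small-subunit protein lost in the 5q- syndrome, 11 bp before its start in replicate 3 (score 11.98, 95.7th percentile), and RPL4, in replicate 3 (score 10.2, 93.3rd percentile). The RPL4 summit lay past the far end of the gene by 206 bp and was 47 bp from an end of SNAPC5. RPS12 had one in replicate 3, 77 bp after its start (score 7.51), and RPL17 had one in replicate 2, 4 bp before its start (score 7.61). RPL32, RPS9, RPL11 and RPL37 in replicate 3 and RPL27A in replicate 1 stood between the 56.4th and the 67.6th percentile, with scores from 5.69 to 6.79. RPS18 (score 5.49) and RPS23 (score 5.44), both in replicate 3, closed the group just under the middle of that list.

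The widest distances counted were those of RPL26 at 813 bp and RPL7 at 709 bp, both in replicate 3. Just outside lay the replicate 3 summits of RPL17 at 1029 bp and of RPL8 at 2658 bp. RPL26L1, a paralog of RPL26, had a replicate 3 summit inside the gene, 41 bp after its most upstream listed start but 4676 bp from the gene's outer end, so it counted by start and not by end.

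By median percentile, the members' summits lay above those at all coding gene ends in replicates 1 and 2 and below them in replicate 3. In replicates 1 and 2 the summits were few and their range was wide. In replicate 1 the 8 members' summits had a median score of 6.34, at a median percentile of 53.2, against a median percentile of 44.4 for the 515 summits within 1 kb of any coding gene end. These 8 ran from the 1.61st percentile at RPL7 to the 93.7th at RPS19. The 5 of the large subunit had a median percentile of 27.7, below that of the gene ends, and only the 3 of the small subunit had a median above it. In replicate 2 the 4 members' summits had a median percentile of 61.9, against 40.4 for 464 summits. They ran from the 3.15th percentile at RPS15A to the 90.5th at RPS19. In replicate 3 the 27 had a median percentile of 41.1, against 48.7 for 2364 summits. No test was made, since summits are not replicates.

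The large and the small subunit were then compared. A summit of any library lay within 1 kb of 17 of the 53 large-subunit genes (32.1%, exact 95% interval 19.9 to 46.3%) and 14 of the 34 small-subunit genes (41.2%, interval 24.6 to 59.3%). Replicate 1 gave 5 large-subunit genes (9.43%) and 3 small-subunit genes (8.82%). Replicate 2 gave 1 large-subunit gene (1.89%) and 3 small-subunit genes (8.82%). Replicate 3 gave 14 large-subunit genes (26.4%) and 13 small-subunit genes (38.2%). The difference, large minus small, averaged -6.05 percentage points ± 6.26 (SD, n = 3) and was positive in 1 library and negative in 2, with an exact two-sided sign-flip permutation p = 0.5. The smallest p that 3 libraries allow is 0.25, so this test could not tell the 2 subunits apart, and no conclusion is drawn from it. Without replicate 3, 6 large-subunit and 5 small-subunit genes had a summit. In replicate 1 the large-subunit summits had a median score of 4.68 and a range of 2.85 to 6.79, and the small-subunit summits a range of 6.54 to 22.4, so the ranges overlapped at their edges. In replicate 3 the large-subunit median was 4.79 (14 summits) and the small-subunit median 5.44 (13 summits), with overlapping ranges.

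**Figure D1:**
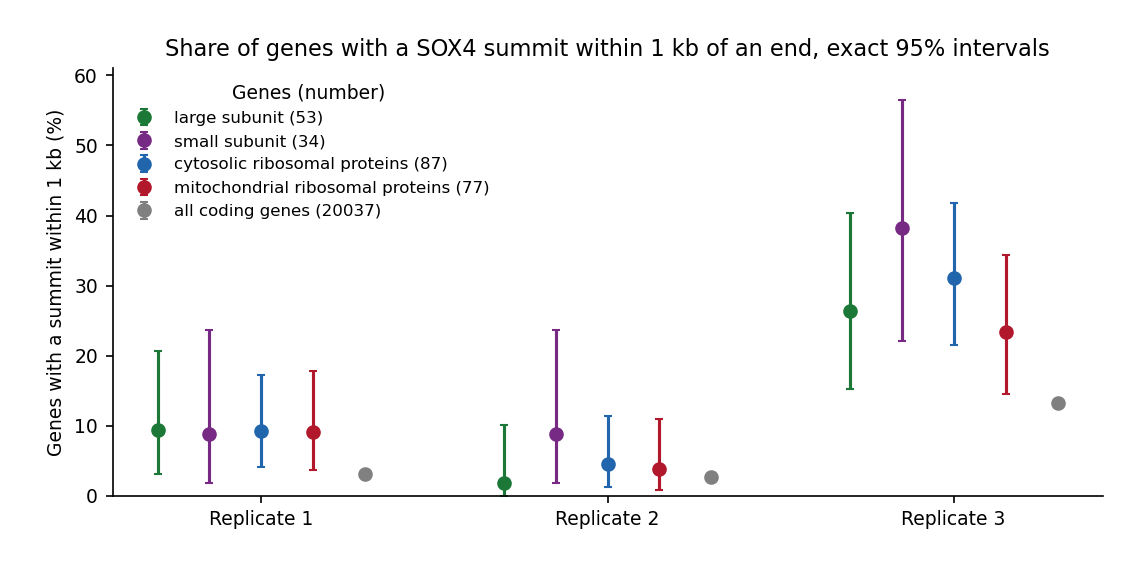
Share of genes in percent (y axis) with a SOX4 summit within 1 kb of an end, by library and gene group. Points are shares and bars exact 95% binomial intervals; the intervals of the large and the small subunit overlap in each library, and all coding genes lie at 3.07, 2.76 and 13.3%.

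Within the family, the groups with known roles were small. The 2 proteins that carry the 5S ribosomal RNA and bind MDM2 when ribosome assembly fails, RPL5 and RPL11, both had a replicate 3 summit, 222 bp from the lower coordinate of RPL5 (score 5.11) and 284 bp after the RPL11 start (score 6.09). The RPL5 summit was also 521 bp from an end of DIPK1A. Of the 3 stalk proteins that recruit elongation factors, RPLP1 had a replicate 3 summit 162 bp after its start (score 3.94). The nearest summits to RPLP0 were 2552, 1489 and 79.5 kb away in replicates 1 to 3, and those to RPLP2 were 225, 224 and 163 kb away. Of 19 genes mutated in Diamond-Blackfan anaemia, 7 had a summit in any library (36.8%) and 3 in at least 2 (15.8%), against 35.6 and 8.05% of the 87 members and 15.1 and 3.2% of all coding genes. All 7 had one in replicate 3, with 2 in replicate 1 and 2 in replicate 2. Of 10 paralogs, 1 did, RPL39L, which is known from testis, 479 bp inside its higher coordinate in replicate 3 (score 3.51). All but 1 of the 31 genes encode proteins of the usual ribosome, but only 10 of the 87 members are paralogs. The share of paralogs with a summit in any library was 10%, with an exact binomial interval of 0.253 to 44.5%. That interval holds both the 15.1% of all coding genes and the 35.6% of the members, so no difference for paralogs can be read from it.

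The position of the summits differed by library. The RefSeq table of starts held 70 of the 87 genes, and where it listed several starts the most upstream one was used. A summit of any library lay within 1 kb of that start at 22 of the 70 genes, against 15.4% of all coding genes with a listed start. It did so at 5 genes in replicate 1, against 3.09% of all, at 2 genes in replicate 2, against 2.55%, and at 18 in replicate 3, against 13.5%. In replicate 3, 16 of the 18 lay downstream of the start, and all 16 were within 300 bp of it, with a median over the 18 of 87 bp downstream. Among all 2141 coding genes counted in that list, 69.6% lay downstream and 52.9% within 300 bp downstream, with a median of 128 bp. The 5 of replicate 1 ranged from 366 bp before the start, at RPL24, to 9 bp after it, at RPL27A, with a median of -60 bp, against -3 bp over all 489 coding genes. In replicate 2, RPS19 and RPL17 lay 75 and 4 bp before the start, and the 404 coding genes had a median of 15 bp. Of the 28 pairs of a member and a library with a listed start, 24 were nearer to the start and 4 to the far end, namely those of RPL41, RPL26 and RPL4 named above.

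**Figure D2:**
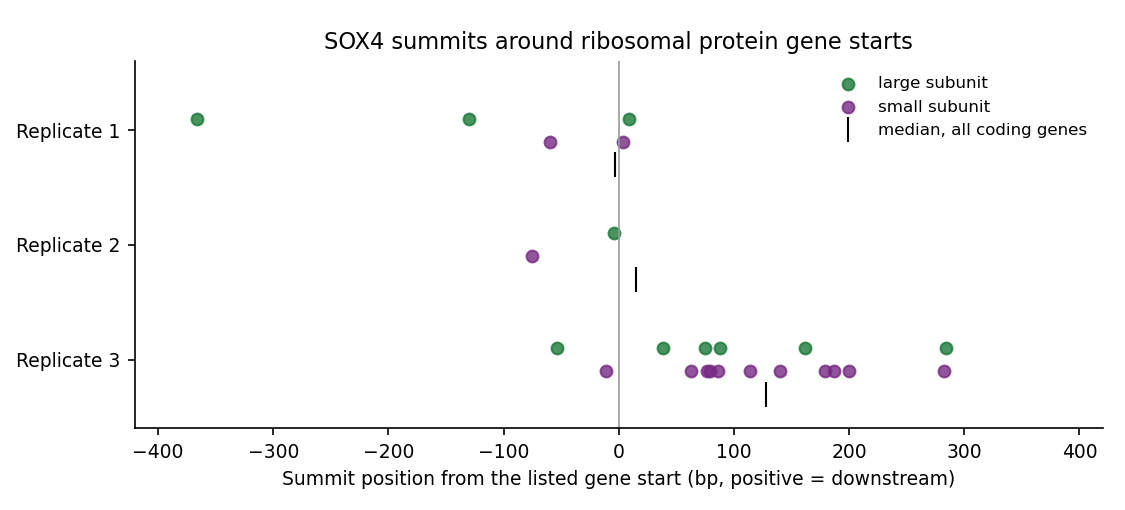
Position of the summit from the listed gene start in bp (x axis, positive in the direction of transcription) for members whose summit is nearer to the start, by library. Points are genes, green for the large and purple for the small subunit, and black ticks mark the median of all coding genes; replicate 3 lies mostly downstream, and replicates 1 and 2 do not.

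The start windows of RefSeq, from 250 bases before to 50 after the start, were read for what the members share beside their name. A pyrimidine run of at least 5 letters held the start in 47 of 70 members (67.1%), against 8.09% of 15843 coding promoters. Such a run was found in 14 of 21 members with a summit within 1 kb of an end and nearer to the start (66.7%) and in 32 of 47 with none within 1 kb of an end (68.1%). RPL26L1, whose summit counted by start and not by end, is among the 47, and RPL4 and RPL41, with summits at the far end, are in neither group. The ETS motif CCGGAAG was in 23 of 70 (32.9%), against 14.2% of all promoters, with 9 of the 21 (42.9%) and 14 of the 47 (29.8%). The SP1 motif was in 52.9% of members and 58.3% of all promoters, the YY1 motif in 12.9% of members and 6.36% of all promoters, and the TATA box in 10.0% of members and 9.75% of all promoters. The SOX motifs were in 4 of 70 members, RPL14, RPL35A, RPLP0 and RPS26 (5.71%), against 10.8% of all promoters. They were in 0 of the 21 members with a summit near the start. Median GC content was 58.0% in the 21 and 60.0% in the 47, against 62.7% over all promoters.

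CTCGCGA was in a larger share of the members' windows than of all windows. This motif was added after the sequences above were read, so its counts there are a description. It is the core of a palindromic element known from CpG-rich promoters, which the factor BANP binds. It was in 12 of 70 members (17.1%), against 3.26% of all coding promoters (517 of 15843). It was in 5 of 5 members with a replicate 1 summit within 1 kb of the start (RPS19, RPS6, RPL26, RPL27A and RPL24) and in 2 of 2 with a replicate 2 summit (RPS19 and RPL17). In replicate 3 it was in 4 of 18 (RPS19, RPS6, RPL10A and RPL7A). RPL12, RPS15, RPS28 and RPL4 carried it with no summit of any library within 1 kb of the start. The middle of the nearest match was 3 bp from the RPS19 summit of replicate 1 and 11 bp from that of replicate 2. It was 30 bp away at RPL27A, 51 bp at RPS6, 85 bp at RPL26 and 256 bp at RPL24 in replicate 1, and 56 bp away at RPL17 in replicate 2. In replicate 3 it was 81 bp away at RPL7A, 117 bp at RPL10A, 226 bp at RPS6 and 231 bp at RPS19.

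Over all coding genes the share also differed by library. Where a summit lay within 1 kb of the start, the motif was in 136 of 489 windows in replicate 1 (27.8%), in 86 of 404 in replicate 2 (21.3%) and in 146 of 2141 in replicate 3 (6.82%). Where none did, it was in 2.48, 2.79 and 2.71% of windows in replicates 1 to 3. Counting only summits inside the 300-base window, the shares were 46.1% of 228 in replicate 1, 38.1% of 181 in replicate 2 and 9.96% of 462 in replicate 3. By number of libraries with a summit within 1 kb of the start, they were 2.18% for 0, 6.13% for 1, 18.2% for 2 and 33.9% for 3. Replicate 1 by itself was at 27.8%, above the class of 2 libraries, and replicate 3, with the longest list, had the lowest share. The number of libraries and which libraries they were cannot be told apart in these classes. The median GC content of these 4 classes was 62.0, 65.7, 65.3 and 64.0%. A match is a description of letters and not a site, and the part of GC content in these shares was not tested.

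**Figure D3:**
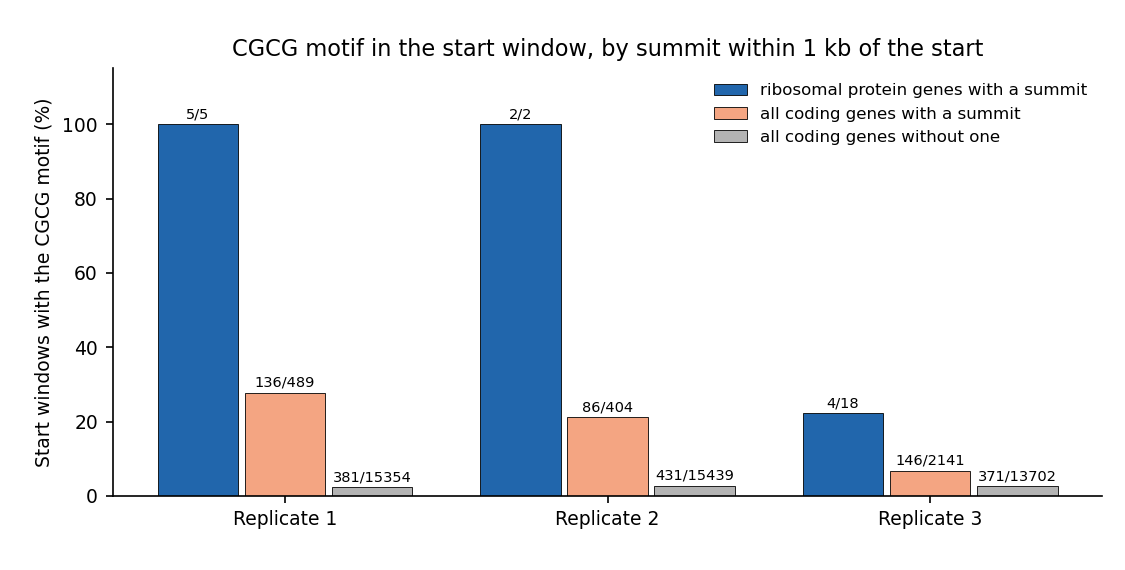
Share of start windows in percent (y axis, from 0) that hold CTCGCGA on either strand, by library, for ribosomal protein genes with a summit within 1 kb of the start, all coding genes with one and all coding genes without one. Bars are shares with the counts above them, and the 2 groups of all coding genes include the members; the shares are 5 of 5, 2 of 2 and 4 of 18 members in replicates 1, 2 and 3.

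Gene structure was also compared. Small nucleolar RNA genes lay inside 29 of the 87 genes, and 13 of these 29 hosts had a summit in any library (44.8%), among them RPS12, RPL4, RPL7A and RPS20. Of the 58 other members, 18 had one (31.0%), and 15.1% of all coding genes did. In replicate 3 a summit was at 10 of the 29 hosts and 17 of the 58 others, against 13.3% of all coding genes. Summits of at least 2 libraries were at 1 of the 29 hosts, RPS20, and at 6 of the 58 others, against 3.2% of all coding genes. By that last count the hosts had the lower share. The span of the genes had a median of 5.63 kb in the 31 with a summit and 4.75 kb in the 56 without. Another coding gene had an end within 1 kb of the summit at 10 of the 31 genes. Beside those named above, these were RPL17 with its readthrough gene RPL17-C18orf32, RPL27A with TRIM66, RPL7A with MED22, RPS18 with VPS52 and RPS29 with LRR1. The same share over all coding genes with a summit is not given here, so 10 of 31 cannot be read as high or low.

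Chromosome 8, where 36.9% of all coding genes had a summit, held 4 members, RPS20, RPL7, RPL30 and RPL8. Of these, 3 had a summit, that of RPL30 265 bp inside its higher coordinate in replicate 3 (score 4.26). Without chromosome 8, 28 of 83 members had a summit in any library, against 14.3% of the coding genes outside chromosome 8. Chromosome 19 held the most members, 12, and 3 of them had a summit, RPS19 and RPS9 among them, where 5.51% of its coding genes had one.

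Other genes of translation were counted in the same way. Of 77 mitochondrial ribosomal protein genes, whose products build the ribosome inside mitochondria, 7 had a summit in replicate 1 (9.09%), 3 in replicate 2 (3.90%) and 18 in replicate 3 (23.4%). Over the libraries together 21 of the 77 had a summit (27.3%), where 15.1% of all coding genes did. The cytosolic genes were above them by a mean of 2.82 percentage points ± 4.20 (SD, n = 3). The differences were 0.104, 0.702 and 7.66 points in replicates 1 to 3, so the mean came mostly from replicate 3. They were positive in 3 of 3 libraries (exact two-sided sign-flip permutation p = 0.25, the smallest possible). Summits of all 3 libraries were at MRPL13, MRPL57 and MRPS28, and MRPL57 had scores of 31.2, 25.6 and 10.6. These were 3 of the 77 (3.90%), against 1.15% of the 87 cytosolic genes and 0.838% of all coding genes. By that count the mitochondrial genes were the higher. MRPL13 and MRPS28 lie on chromosome 8, where 36.9% of all coding genes had a summit. Of 16 genes of elongation and other TOP messages, 7 had a summit in any library (43.8%) and 3 in at least 2, BTF3, EIF3E and EIF3H. EIF3E and EIF3H also lie on chromosome 8. All 7 had one in replicate 3, with 2 in replicate 1 and 1 in replicate 2. Of 20 ribosome biogenesis genes 9 had one in any library (45.0%), and again all 9 in replicate 3, with 1 in replicate 1 and 0 in replicate 2. The gene with 2 libraries was NCL, which encodes nucleolin. Both lists had a higher share in any library than the 35.6% of the cytosolic ribosomal protein genes, though they hold only 16 and 20 genes. Over all coding genes the shares were 15.1% in any library, 3.2% in at least 2 and 13.3% in replicate 3.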

How the data were processed

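The authors' deposited files were 1 list of summits per library, called per library and not on pooled reads. Each deposited summit carries a −log10 score, and whether of p or of q is not given in the sources used here. BWA, SAMtools and MACS2 are named, without versions, in the submitters' processing notes. The notes name hg19, but the lists hold 41 contig names with KI270 identifiers, which belong to GRCh38, and a position of 83247361 on chromosome 17, past its end in hg19. Positions are therefore given 1-based on GRCh38.

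For each gene of the RefSeq GRCh38.p14 table the nearest summit to either end was found in each list with pandas 2.3.3 and NumPy 2.4.6. A gene was counted at 1 kb or less. The step was tested on simulated data and recovered the distances of 20 of 20 planted summits. Binomial intervals are exact (SciPy 1.17.1). Differences of shares were tested over libraries by an exact sign-flip permutation test. No test was made over genes. The binomial intervals do take genes as independent draws, although genes that lie close together can share a summit. They are therefore descriptive, and their overlap is not a test. The p-values take the library as the unit, and a value of 0.25 says only that all 3 differences had the same sign. It does not measure how far the libraries differ. The spread between libraries may be technical, and depth is unknown. No 2 lists were copies: at most 6 summits of a pair of lists had identical positions.

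The members and gene lists were chosen with earlier results of these data known. Named in full were members with summits of at least 2 libraries, the 12 with the highest percentile among those of 1 library, the nearest inside and outside 1 kb, members of the small subgroups, neighbours of member summits, and listed genes with 2 libraries. RPL10A, RPL7A, RPL24 and RPL30, the motif carriers without a summit and the CTCGCGA motif were chosen after their values were seen. Alternatives changed the distance, the gene end, the score threshold, the list length and the gene set, and left out each library. Some items are not reported here.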

Additional observations from a re-analysis of the deposited data

How the results depend on the processing

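Of 50 recomputed values, 35 kept within 1.5 times the reported count or, for the subunit difference, its direction. The large minus small difference was negative in all 10 settings, from -9.38 to -2.90 percentage points. The settings reuse the same 3 lists, so their shared sign is no added support, and replicate 1 alone was positive in the main setting (0.610 points). No setting could pass a threshold of 0.05, since 3 libraries give no p under 0.25. Leaving out 1 library gave 11 to 30 members in any library (1 to 5 in at least 2), with 6 to 16 of the large and 5 to 14 of the small subunit; the low values are those without replicate 3, and 3 members had at least 2 libraries without replicate 1. With only summits at or above the median score of their list, 16 members had a summit in some library (all coding genes: 7.77%), 4 in at least 2, 8 of the large and 8 of the small subunit. With lists cut to the 1264 best summits each, the counts were 14 (against 7.04%), 4, 7 and 7. By the annotated start alone, 22 of 70 members had a summit (against 15.4%), 2 in at least 2 libraries (against 2.99%), and 11 of each subunit. Other settings changed no count by more than 1.5 times. No paired analysis was possible because the 3 libraries form 1 group.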

Other observations

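Ribosomal proteins also have many pseudogenes, mostly copies of their messages without the promoter. Of 1989 ribosomal protein pseudogenes of the RefSeq table, 8 had a SOX4 summit of any library within 1 kb of an end (0.402%), against 1.38% of all 16845 pseudogenes. They were 2 in replicate 1, 4 in replicate 2 and 6 in replicate 3. RPL23AP53 and RPS5P5, both on chromosome 8, had summits of all 3 libraries, at 97, 346 and 301 bp and at 245, 140 and 330 bp in replicates 1 to 3. The other 6 had 1 library each. The pseudogenes were counted after the other results were seen.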
